A study of Rattus norvegicus with 4 samples.

Results

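The Cyp2b family is a group of cytochrome P450 enzymes of the liver, and its members were taken as all annotated genes whose symbol starts with Cyp2b. This gave 6 genes of the 16992 genes in the tables, namely *Cyp2b1*, *Cyp2b2*, *Cyp2b3*, *Cyp2b12*, *Cyp2b15*, and *Cyp2b21*. Liver RNA (left lateral lobe) of 4 male Wistar rats that were 6 weeks old at purchase was sequenced, each rat standing for 1 condition. Anesthesia was given by nose cone for 6 hours as 4.5% sevoflurane or 6% desflurane with oxygen at 50% and a flow of 3 L/min, and the control of each agent inhaled the same mixture but was sacrificed after less than 1 minute, upon loss of consciousness. All animals, controls included, had thus been exposed to an anesthetic agent, and all had been without food and water for 2 hours beforehand. The 6 hour animals then also went unfed through the 6 hours of anesthesia, which the controls did not. Each 6 hour change therefore includes a longer time without food, which cannot be told apart from the agent. Because each condition has 1 library, no difference has a replicate error and no test was made. Differences between the control livers are given beside the changes as the only available view of how much livers in like condition differed, and they also include the difference in agent.

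Cytochrome P450 enzymes oxidize drugs, steroids, and other lipophilic compounds, and they receive electrons from the reductase encoded by *Por* and carry heme, whose synthesis starts with the enzyme encoded by *Alas1*. The rat enzymes CYP2B1 and CYP2B2 are the classical phenobarbital-inducible forms of the liver, whereas CYP2B3 is known as a constitutive form. Their induction runs through the constitutive androstane receptor (CAR, gene *Nr1i3*), which is held in the cytoplasm in a complex with HSP90 and the co-chaperone encoded by *Dnajc7* and, after entering the nucleus, binds with RXRA to an enhancer that lies upstream of the promoter stretches shown here. CAR shares many targets with the pregnane X receptor (PXR, gene *Nr1i2*).

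Promoter sequences of all 6 members were found by symbol in the RefSeq table for the GRCr8 build, each with 250 bases before and 50 bases after the annotated start. Those of the abundant members are shown, because *Cyp2b1* and *Cyp2b2* rose with anesthesia and *Cyp2b3* did not. The *Cyp2b1* stretch is at chr1:90645869-90646168, the *Cyp2b2* stretch at chr1:90722031-90722330, and the *Cyp2b3* stretch at chr1:90780242-90780541, all of GRCr8 and on the + strand. Capitals mark matches of the displayed strand to TTGCNNAA, which resembles sites of C/EBP factors, and to ATAAAAG, which resembles a TATA box.
Cyp2b1: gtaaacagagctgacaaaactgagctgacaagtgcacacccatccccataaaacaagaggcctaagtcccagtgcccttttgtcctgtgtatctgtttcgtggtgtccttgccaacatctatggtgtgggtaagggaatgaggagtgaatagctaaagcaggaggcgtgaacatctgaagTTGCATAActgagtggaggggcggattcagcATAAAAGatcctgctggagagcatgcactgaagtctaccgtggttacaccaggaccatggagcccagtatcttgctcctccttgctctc
Cyp2b2: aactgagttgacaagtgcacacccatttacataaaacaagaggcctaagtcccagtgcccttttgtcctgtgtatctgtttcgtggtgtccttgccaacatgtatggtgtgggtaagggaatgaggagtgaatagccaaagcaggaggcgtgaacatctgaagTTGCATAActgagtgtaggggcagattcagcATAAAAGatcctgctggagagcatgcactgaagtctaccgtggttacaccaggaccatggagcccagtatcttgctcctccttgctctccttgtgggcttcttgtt
Cyp2b3: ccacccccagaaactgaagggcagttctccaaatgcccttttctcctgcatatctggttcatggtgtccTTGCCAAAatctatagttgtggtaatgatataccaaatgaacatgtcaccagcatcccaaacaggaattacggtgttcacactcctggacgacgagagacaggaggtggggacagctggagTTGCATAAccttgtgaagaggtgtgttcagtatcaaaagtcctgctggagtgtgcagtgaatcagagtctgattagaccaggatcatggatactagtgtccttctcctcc
Over 283 aligned bases, the *Cyp2b1* and *Cyp2b2* stretches differed at 8 positions (97.2% identity) and shared an identical run of 97 bases. *Cyp2b3* was 83.2% identical to *Cyp2b1* over 238 aligned bases and 82.3% identical to *Cyp2b2* over 237, with no identical run longer than 15 bases in either alignment. This distance was not particular to *Cyp2b3*. Identity to *Cyp2b1* was 84.7% for *Cyp2b12*, 82.2% for *Cyp2b15*, and 81.3% for *Cyp2b21*. On either strand, TTGCNNAA was present in the promoters of all 6 members and in 10.6% of the 33469 promoters of this length. ATAAAAG was present in 5 members, the exception being *Cyp2b3*, and in 5.69% of all promoters, and it did not overlap TTGCNNAA in any member. The nuclear receptor motif AGGTCA was found in *Cyp2b12*, *Cyp2b15*, and *Cyp2b21* and in 16.2% of all promoters, and the direct repeat of this motif with 4 bases in between, a form bound by CAR with RXRA, was found in 0 members and in 2 of the 33469 promoters. These are matches of letters within the stretches, and binding was not measured.

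In the rn6 build used for the deposited tables, *Cyp2b2* (chr1:83103925-83119578, + strand) and *Cyp2b3* (chr1:83163103-83236615, + strand) lie side by side, followed by *Cyp2b21* (chr1:83389783-83418613, - strand) and *Cyp2b12* (chr1:83511167-83614566, + strand). *Cyp2b1* stands apart at chr7:99158102-99181774 (+ strand), and *Cyp2b15* at chr1:251325923-251338358 (- strand), within the span of *Atad1* on the same strand. In the RefSeq table for GRCr8, all 6 members are on chromosome 1, with 1 gene listed between *Cyp2b1* and *Cyp2b2* and 0 between *Cyp2b2* and *Cyp2b3*. None of the 7 rn6 neighbours of *Cyp2b1* within 500 kb is on chromosome 1 in GRCr8, and none of the 6 neighbours of *Cyp2b15* is within 1500 kb of it there, whereas all 7 rn6 neighbours of *Cyp2b3* that the table lists are. The position of *Cyp2b1* and *Cyp2b15* therefore differs between the builds, and the values below are those at the rn6 positions.

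*Cyp2b1*, an inducible form, had the largest fold change of the abundant members with both agents. Its TPM value (read density per transcript length, as scaled by StringTie) rose from 17.8 in the control to 1632 at 6 hours of sevoflurane and from 16.1 to 1090 at 6 hours of desflurane. Both control levels were low and close to each other, the desflurane control being 0.903-fold of the sevoflurane control, and both 6 hour levels were far above them. These levels give a 91.8-fold change with sevoflurane and a 67.9-fold change with desflurane (log2 changes of 6.52 and 6.09). In the order of expression within a library, *Cyp2b1* was number 4036 of 16992 genes in the sevoflurane control and number 67 after 6 hours of sevoflurane, and number 4269 in the desflurane control and number 96 after 6 hours of desflurane. Its average coverage was 31.9 and 30.0 reads per base in the controls and 2762 and 1837 after 6 hours, so that the control level is not set by a few reads.

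*Cyp2b2*, the other inducible form, started from a higher level. Its TPM value rose from 153 to 1893 with sevoflurane and from 165 to 1271 with desflurane. The controls were again alike (1.07-fold), and both 6 hour libraries were above both controls. The change was 12.3-fold with sevoflurane and 7.71-fold with desflurane (log2 changes of 3.63 and 2.95). In TPM, *Cyp2b2* gained 1739 with sevoflurane and 1106 with desflurane, compared with 1614 and 1074 for *Cyp2b1*, so the amounts gained were closer than the fold changes.

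*Cyp2b3*, the constitutive form, was the most abundant member in both controls and did not pass the limits with either agent. Its TPM value was 554 in the control and 466 at 6 hours for sevoflurane, and 517 in the control and 497 at 6 hours for desflurane. These are 0.841-fold and 0.960-fold of the respective controls, and the controls differed from each other by a similar factor (0.934-fold). *Cyp2b3* was 31.2-fold and 32.2-fold above *Cyp2b1* in the sevoflurane and desflurane controls. After 6 hours, *Cyp2b1* was 3.50-fold above *Cyp2b3* with sevoflurane and 2.20-fold above it with desflurane.

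A gene was called upregulated or downregulated, following the limits in the methods of the study, when the 6 hour level was more than 2-fold above or below that of its own control and the greater of both TPM values exceeded 2. *Cyp2b1* and *Cyp2b2* passed in the upward direction with both agents, while 1.28% of all 16992 genes were called higher with sevoflurane and 1.62% with desflurane. Among the 9474 genes with a TPM value higher than 2 after 6 hours of sevoflurane and above 0 in its control, *Cyp2b1* ranked number 3 and *Cyp2b2* number 5 by fold change. Among the 9694 such genes for desflurane, they ranked number 2 and number 20. Ranked by TPM gained, *Cyp2b2* and *Cyp2b1* were number 9 and number 10 of all genes with sevoflurane and number 8 and number 9 with desflurane.

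**Figure D1:**
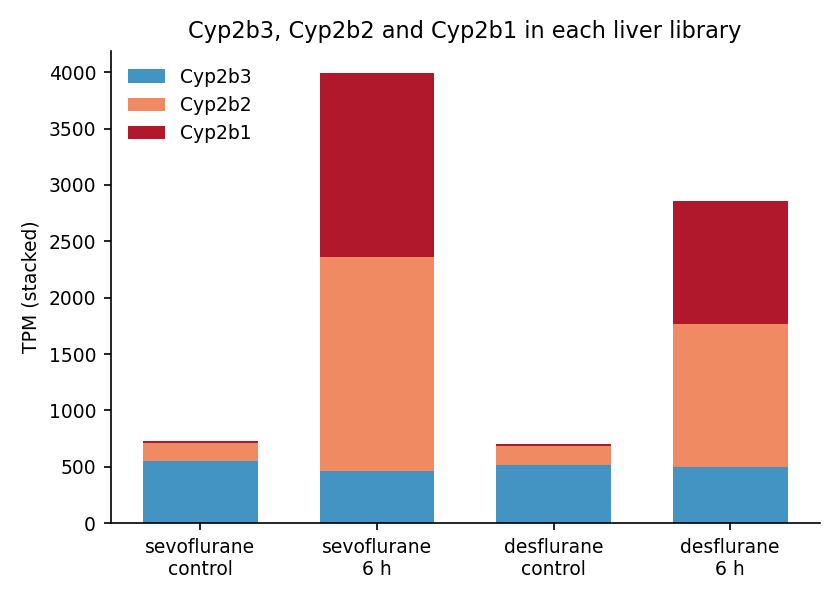
Stacked bars of the TPM values of *Cyp2b3*, *Cyp2b2*, and *Cyp2b1* (vertical axis, TPM from 0) in the 4 libraries, each bar being 1 rat liver. The control bars reach 725 and 698 and are mostly *Cyp2b3*, and the 6 hour bars reach 3991 with sevoflurane and 2858 with desflurane and are mostly *Cyp2b2* and *Cyp2b1*.

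Since *Cyp2b1* and *Cyp2b2* are near-identical paralogs, reads from identical stretches could have been assigned to either gene, and the separate values and their ratio are uncertain. The TPM ratio of *Cyp2b1* to *Cyp2b2* was 0.116 and 0.0974 in the sevoflurane and desflurane controls and 0.862 and 0.858 after 6 hours of these agents. The 6 hour ratios were nearly equal, although the levels themselves differed between the agents. The sum of both genes is therefore given as well, although reads shared with other genes could also affect it. It went from 171 to 3525 TPM with sevoflurane (20.6-fold) and from 181 to 2361 TPM with desflurane (13.1-fold). The sum over all 6 members went from 725 to 3991 TPM with sevoflurane (5.50-fold) and from 698 to 2858 TPM with desflurane (4.09-fold), with the controls differing 0.963-fold. The smaller fold change of the family sum goes with the high and little changed level of *Cyp2b3*, which made up 76.4% and 74.1% of the sum in the sevoflurane and desflurane controls and 11.7% and 17.4% after 6 hours. *Cyp2b1* made up 2.45% and 2.30% of the family sum in the controls and 40.9% and 38.1% after 6 hours.

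The 6 hour livers can also be set against each other. *Cyp2b1* was 1.5-fold and *Cyp2b2* 1.49-fold higher after sevoflurane than after desflurane, and *Cyp2b3* was 0.938-fold. With 1 rat per agent, this difference between agents has no error. In it, 0 of the 6 members pass the limits. Of all genes, 0.677% were called higher and 1.59% lower after sevoflurane than after desflurane. *Cyp2b21* was 3.73-fold higher, but *Cyp2b21*, *Cyp2b12*, and *Cyp2b15* were below the TPM limit and could not pass. Between the controls, 0 of the 6 members pass, and 0.671% of all genes were called in each direction. With the controls exchanged between the agents, *Cyp2b1* changed 102-fold with sevoflurane and 61.3-fold with desflurane, and *Cyp2b2* changed 11.5-fold and 8.28-fold.

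The remaining members were near the lower end of measurement in all libraries, with average coverage below 1 read per base. The TPM value of *Cyp2b15* was 0.0139 in the control and 0.420 at 6 hours for sevoflurane, and 0.00817 in the control and 0.467 at 6 hours for desflurane. Both 6 hour values were above both controls, but none reached the TPM limit of 2. *Cyp2b12*, known from sebaceous glands of the skin, was between 0.0228 and 0.0492 TPM, with the 6 hour values of 0.0492 and 0.0469 above the control values of 0.0228 and 0.0241. *Cyp2b21* was at or below 0.00614 TPM and is listed at 0 in the desflurane control. The level of *Cyp2b1* was between 1276-fold and 3890-fold above that of *Cyp2b15* in the 4 libraries, and whether reads of the abundant paralogs were placed on *Cyp2b15* was not tested. With respect to the TPM limit, 3 of the 6 members passed it, and these are the same 3 in each library.

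**Figure D2:**
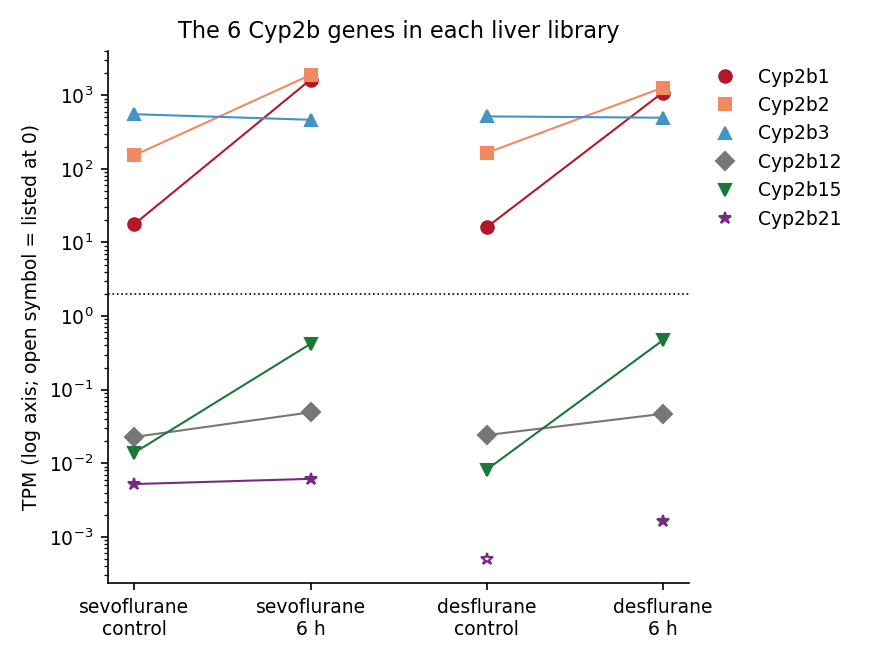
TPM values of the 6 Cyp2b genes (log axis) in the 4 libraries, with lines joining each 6 hour library to its own control. The dotted line is the TPM limit of 2, and an open symbol marks *Cyp2b21*, listed at 0 in the desflurane control. *Cyp2b1* and *Cyp2b2* move upward with both agents, *Cyp2b3* stays between 466 and 554 TPM, and the other genes lie below the limit.

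The tables also contain rows that StringTie assembled from the reads without regard to gene names, which repeat the reads of the annotated rows and were used here only to describe the loci. In both controls, an assembled row coincided with the annotated *Cyp2b1* at the same TPM value (17.8 and 16.1) and separate rows lay on either side. Behind the gene, these had 39.5 TPM in the sevoflurane control and 47.7 TPM in the desflurane control, 2.22-fold and 2.97-fold of *Cyp2b1* itself. After 6 hours, the row covering *Cyp2b1* started 15.8 kb before the annotated start with both agents and ended 2.80 kb behind the annotated end, with TPM values of 1286 for sevoflurane and 858 for desflurane. In the sevoflurane control, the region before the gene held a separate row of 13111 bp on the same strand with 1.95 TPM, and in the desflurane control a row of 463 bp with 3.10 TPM. Whether the longer rows are transcripts that start upstream, or adjacent transcripts joined in the assembly, was not tested. At *Cyp2b2*, the assembled rows differed by at most 0.130 kb from the annotated start and their TPM values went from 171 to 2330 with sevoflurane and from 186 to 1700 with desflurane. At *Cyp2b3*, the assembled rows went from 386 to 325 TPM with sevoflurane and from 211 to 358 TPM with desflurane, so that the change with desflurane is 1.70-fold in these rows and the opposite of that in the annotated rows.

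**Figure D3:**
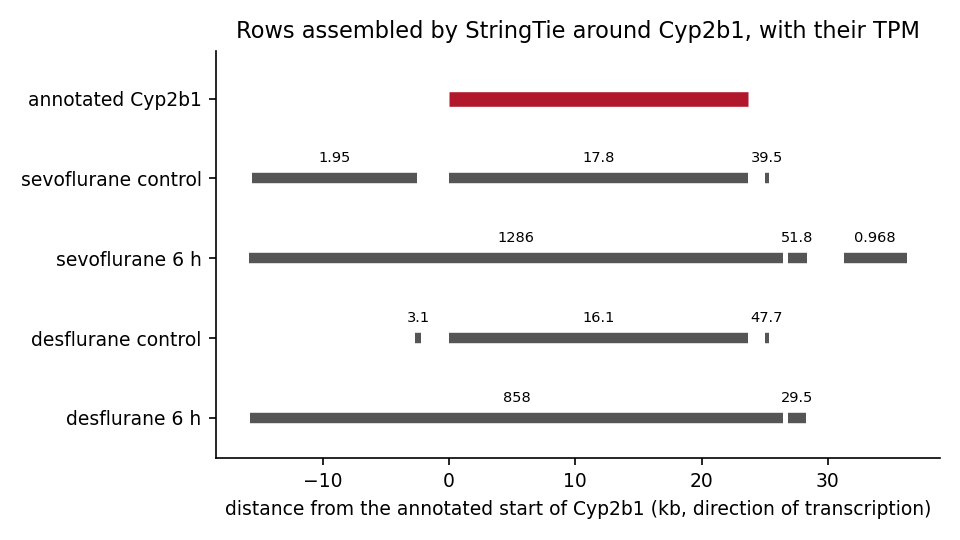
Rows assembled by StringTie within 20 kb of *Cyp2b1* in each library, drawn to scale by distance from the annotated start (kb), with the TPM value printed above each row. In both 6 hour libraries, 1 row of 1286 or 858 TPM spans the gene and the region before it, whereas the controls have a *Cyp2b1* row of 17.8 or 16.1 TPM and separate rows, those behind the gene having 39.5 and 47.7 TPM. The 6 hour libraries also have separate rows further behind the gene, the largest at 51.8 TPM with sevoflurane and 29.5 TPM with desflurane.

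Annotated genes within 500 kb of any Cyp2b gene were also examined. Of these 33 genes, 24 had a TPM value higher than 2 in at least 1 library, and 0 of them passed the limits with either agent. Among all genes above this TPM limit, 2.23% were called higher and 3.3% lower with sevoflurane and 2.79% and 1.48% with desflurane, so that a count of 0 among 24 genes is near the background. Their changes ranged from 0.619-fold to 1.58-fold with sevoflurane and from 0.791-fold to 1.67-fold with desflurane. In rn6, *Cyp2a1* and *Cyp2a2*, steroid hydroxylases of the liver, lie 96 kb from *Cyp2b12*, and they were 0.952-fold and 0.909-fold of the control with sevoflurane and 1.15-fold and 1.19-fold with desflurane. Among the 7 rn6 neighbours of *Cyp2b1*, changes ranged from 0.619-fold (*Nsmce2*) to 1.54-fold (*Mtss1*) with sevoflurane and from 0.844-fold (*Trmt12*) to 1.67-fold (*Sqle*, an enzyme of cholesterol synthesis) with desflurane.

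Among P450 subfamilies of at least 2 genes, 9 had a summed TPM value higher than 2 in some library, and Cyp2b showed the largest change with both agents. For the other 8, the change of the sum ranged from 0.828-fold to 1.81-fold with sevoflurane and from 0.771-fold to 2.06-fold with desflurane. The Cyp3a sum, of enzymes linked to CAR and PXR, was at 1.38-fold with sevoflurane and 1.69-fold with desflurane, but its desflurane control was 0.561-fold of its sevoflurane control, a gap between controls that the Cyp2b sum did not have. The Cyp2c sum, the largest of all, was 0.973-fold with sevoflurane and 0.897-fold with desflurane. The Cyp2b share of the summed TPM of all P450 genes went from 3.05% to 14.7% with sevoflurane and from 3.29% to 10.8% with desflurane. With sevoflurane, the summed TPM of all P450 genes increased by 3344, and Cyp2b accounted for 97.7% of this net gain. With desflurane, the P450 sum increased by 5289, and Cyp2b accounted for 40.8%. These shares depend on the control, since the P450 sum was 23799 TPM in the sevoflurane control and 21208 TPM in the desflurane control. With exchanged controls, the shares were 55.5% for sevoflurane and 79.0% for desflurane, in the opposite order. Among P450 genes, *Cyp2b2* and *Cyp2b1* were number 23 and number 39 by TPM in the sevoflurane control and number 6 and number 8 after 6 hours of sevoflurane, and number 23 and number 38 in the desflurane control and number 7 and number 11 after 6 hours of desflurane.

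**Figure D4:**
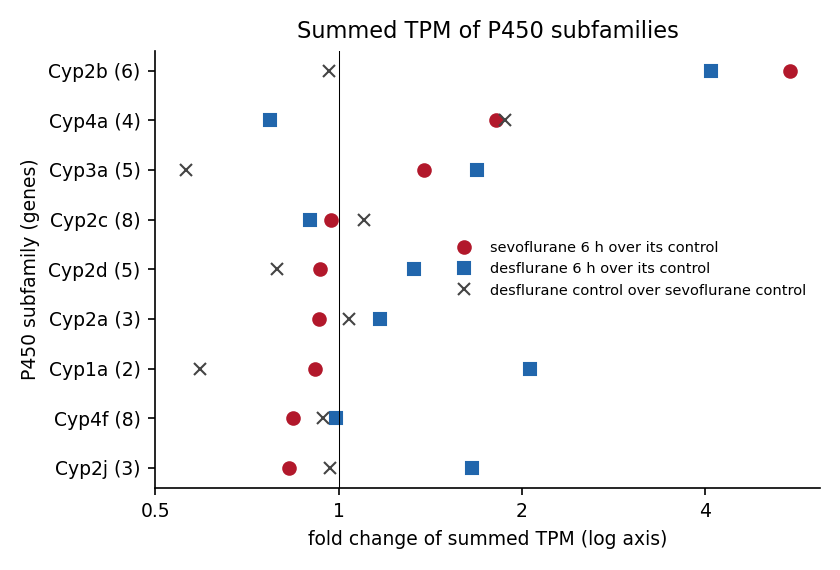
Fold change of the summed TPM (log axis) of 9 P450 subfamilies with the number of genes in parentheses, for sevoflurane (circles), desflurane (squares), and the desflurane control over the sevoflurane control (crosses). The Cyp2b points lie at 5.50-fold and 4.09-fold with the control cross at 0.963-fold, and the other subfamilies lie between 0.771-fold and 2.06-fold.

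Other genes described as CAR targets were taken as a list of 44 symbols, of which 42 were found. With sevoflurane, 8 of the 42 genes were called upregulated (19.0%) and 0 downregulated, and with desflurane 11 (26.2%) and 0, beside 1.28% and 1.62% of all genes called higher. Most genes of the list are well expressed, and among genes with a TPM value higher than 2 in either library of the pair, 2.23% were called higher and 3.3% lower with sevoflurane, and 2.79% higher and 1.48% lower with desflurane. The list had a median log2 change (of TPM + 1) of 0.25 for sevoflurane and 0.27 for desflurane, compared with 0.05 and 0.11 for the 9136 genes that exceeded 2 TPM in every library. Since several of these genes were known from the earlier results of these libraries when the list was written, the counts are not independent evidence.

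The 7 list genes upregulated by both agents included the partners of P450 enzymes. *Por*, the P450 reductase, went from 144 to 642 TPM with sevoflurane (4.46-fold) and from 119 to 415 TPM with desflurane (3.48-fold). *Alas1*, the first and rate-limiting enzyme of heme synthesis, went from 98.2 to 433 TPM (4.41-fold) and from 100.2 to 304 TPM (3.04-fold). For both genes, as for *Cyp2b1* and *Cyp2b2*, the controls were close and the 6 hour level was higher with sevoflurane. *Ces2c*, a carboxylesterase, went from 11.8 to 38.9 TPM (3.29-fold) with sevoflurane and from 9.62 to 26.7 TPM (2.78-fold) with desflurane. *Abcb1a*, a drug efflux pump, changed 2.33-fold and 2.83-fold, and *Cyp3a23/3a1* changed 4.07-fold and 2.15-fold. The *Cyp3a23/3a1* controls differed, at 451 and 265 TPM, and with exchanged controls its changes were 6.92-fold with sevoflurane and 1.27-fold with desflurane, the latter below the limit. *Gadd45b*, a stress-inducible gene that is also induced by CAR activators, went from 3.29 to 24.8 TPM (7.54-fold) with sevoflurane and from 1.93 to 30.9 TPM (16.0-fold) with desflurane. *Gstm3l*, named as a glutathione transferase gene, had controls of 0.534 and 2.41 TPM and 6 hour values of 8.27 and 8.74 TPM.

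*Abcc3*, an efflux transporter for conjugates, was upregulated by sevoflurane (2.70-fold) and was 1.82-fold higher with desflurane. *Cyp3a9* (3.65-fold), *Cyp3a18* (4.06-fold), *Sult1a1* (2.30-fold), and *Sult2a2* (2.46-fold) passed with desflurane, and with sevoflurane they were at 0.874-fold, 1.26-fold, 1.06-fold, and 1.78-fold. For *Cyp3a18*, the control level was 476 TPM in the sevoflurane control and 142 TPM in the desflurane control, while both 6 hour levels were similar at 599 and 574 TPM. With exchanged controls, 7 of the 8 genes called with sevoflurane and 7 of the 11 called with desflurane passed again. *Abcc3* did not with sevoflurane (1.44-fold). With desflurane, *Cyp3a23/3a1* (1.27-fold), *Cyp3a18* (1.21-fold), *Sult1a1* (1.51-fold), and *Sult2a2* (1.45-fold) did not. In this setting, *Abcc3* passed with desflurane (3.39-fold), and *Cyp3a18* (4.23-fold) and *Sult2a2* (3.02-fold) passed with sevoflurane. The agent with which these 3 genes passed thus depended on the control. The most abundant list genes did not pass with either agent. *Cyp2c7* was 1.01-fold with sevoflurane and 0.592-fold with desflurane, *Cyp3a2* was 0.937-fold and 1.39-fold, and *Gstm1* was 1.44-fold and 0.790-fold. By log2(TPM + 1), the lowest changes in the list were those of *Abcc2*, another efflux transporter, with sevoflurane (0.669-fold) and *Myc* with desflurane (0.507-fold), and by the plain TPM ratio *Aldh1a7*, at most 1.41 TPM in all libraries, was lower with sevoflurane (0.600-fold).

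**Figure D5:**
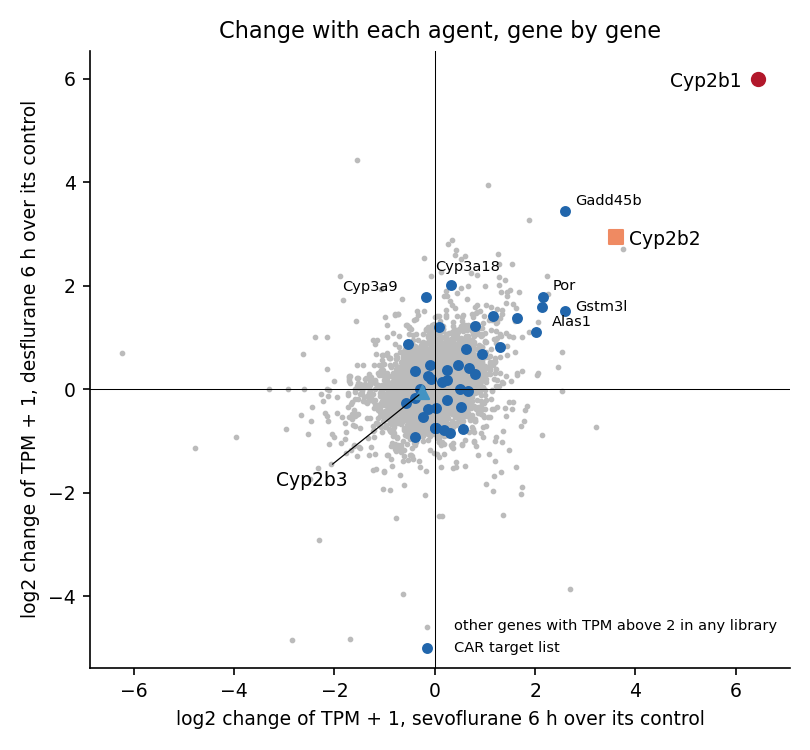
Log2 change of the TPM value plus 1 with sevoflurane (horizontal axis) and desflurane (vertical axis), each against its own control, with 1 point per gene having a TPM value higher than 2 in any library. *Cyp2b1* lies at the far upper right, *Cyp2b2* lies between it and the main cloud, *Cyp2b3* lies close to the origin, and the CAR target list (blue) is spread from the center to the upper right.

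The receptor and its regulators were taken as a list of 29 CAR pathway genes, all of which were found. With sevoflurane, 0 were called upregulated and 3 downregulated, and with desflurane 2 upregulated and 1 downregulated. Of all genes, 1.28% were called higher and 1.9% lower with sevoflurane, and 1.62% higher and 0.859% lower with desflurane. All 29 had a TPM value higher than 2 in at least 1 library of each pair. Among all such genes, 2.23% were called higher and 3.3% lower with sevoflurane, and 2.79% and 1.48% with desflurane. *Nr1i3*, which encodes CAR itself, went from 52.9 to 22.7 TPM with sevoflurane and was at 37.3 TPM in the control and 42.1 TPM at 6 hours for desflurane. It was called downregulated with sevoflurane (0.430-fold) and not with desflurane (1.13-fold), and thus its level did not follow that of *Cyp2b1*. *Nr1i2*, which encodes PXR, went from 67.7 to 121 TPM with sevoflurane (1.79-fold) and from 54.2 to 153 TPM with desflurane (2.82-fold), passing with desflurane. *Ppargc1a*, a coactivator induced by fasting, changed 4.64-fold with desflurane from a control level of 2.90 TPM and 1.20-fold with sevoflurane. The genes called downregulated with sevoflurane were *Nr1i3*, *Foxa2* (0.416-fold), a liver transcription factor, and *Nr0b2* (0.419-fold), a corepressor of nuclear receptors. With desflurane, *Hsp90aa1*, a chaperone of the cytoplasmic CAR complex, was called downregulated (0.493-fold). The most abundant genes of the list, *Hsp90ab1*, *Rxra*, and *Hnf4a*, changed between 0.713-fold and 1.40-fold. With the control of the other agent, 1 of the 3 genes called downregulated with sevoflurane passed again, and *Nr1i3* was at 0.610-fold.

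The list of 18 P450 partner genes covers electron supply, heme binding, heme synthesis, and heme breakdown. Of these, *Por* and *Alas1* were upregulated by both agents (11.1%), and the other 16 did not pass with either. Of all genes, 1.28% were called higher with sevoflurane and 1.62% with desflurane. Among genes with a TPM value higher than 2 in either library of the pair, which include all 18, these shares were 2.23% and 2.79%. *Por* and *Alas1* are also in the CAR target list, so their calls here are no separate result. The most abundant, *Cyb5a* (cytochrome b5) and *Pgrmc1*, a heme-binding partner of P450 enzymes, were at 1.18-fold and 1.11-fold with sevoflurane and 1.44-fold and 1.08-fold with desflurane. By log2(TPM + 1), the lowest changes were those of *Pgrmc2* with sevoflurane (0.677-fold) and *Cpox* with desflurane (0.779-fold), and by the plain TPM ratio *Uros* was lower with desflurane (0.762-fold).

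The genes whose pattern over the 4 libraries was nearest to that of *Cyp2b1* were sought among 9992 genes with a TPM value higher than 2 in any library, by the Euclidean distance of log2(TPM + 1) after subtraction of each gene's mean. *Cyp2b2* was the nearest (distance 2.95), followed by *Ptgis* (3.25), *Gadd45b* (3.28), *Zfp354a* (3.77), and *Mfsd2a* (4.06). All 5 were called upregulated with both agents. They were chosen for nearness to a gene that rose strongly with both agents, so these calls follow from the choice and are no separate result. *Ptgis*, which encodes prostacyclin synthase, went from 0.134 to 14.2 TPM with sevoflurane and from 1.94 to 18.2 TPM with desflurane. *Zfp354a*, a zinc finger gene, went from 18.5 to 70.5 TPM and from 7.06 to 76.5 TPM, and *Mfsd2a*, a lipid transporter induced by fasting, from 18.1 to 88.9 TPM and from 21.5 to 101 TPM. Likeness over 4 libraries is a description of these libraries.

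The liver label was checked with marker genes. All 9 hepatocyte markers had TPM values higher than 2 in every library, with sums between 131233 and 146986 TPM. The summed level of 7 pericentral markers, which include *Glul* and *Cyp2e1* and mark the zone where CYP2B induction is typically strongest, went from 4927 to 3819 TPM with sevoflurane and from 3047 to 5002 TPM with desflurane, whereas *Cyp2b1* rose with both. Most of this sum was *Cyp2e1*, at 3361 and 2456 TPM for sevoflurane and 2034 and 3299 TPM for desflurane. The sum of the other 6 markers was 1566 and 1364 TPM for sevoflurane and 1013 and 1703 TPM for desflurane. That remainder was mostly *Cyp1a2*, at 996 and 909 TPM for sevoflurane and 589 and 1214 TPM for desflurane. *Glul* and *Slc1a2* moved in the direction of the sum. *Oat* moved against it, from 148 to 181 TPM with sevoflurane and from 123 to 106 TPM with desflurane. *Axin2* changed little, at 10.3 and 9.82 TPM for sevoflurane and 8.67 and 8.50 TPM for desflurane. *Lgr5* was at most 0.747 TPM, below the TPM limit in all libraries. The sum of 6 periportal markers went from 3805 to 5469 TPM with sevoflurane and from 2912 to 5654 TPM with desflurane. It is given without its single genes, and the study lists its member *Sds* among genes activated by both agents. The part of these marker differences in the Cyp2b changes was not tested. In bulk tissue, more cells expressing a gene and more RNA per cell cannot be told apart. Pancreatic acinar markers were above the TPM limit for 8 of 8 genes in the sevoflurane control (sum 55.6 TPM) and for 1 of 8 in each other library (sums between 15.7 and 18.6 TPM), and their part in the Cyp2b values was not tested. Kupffer cell markers summed to between 399.9 and 623 TPM, and T and B cell markers to between 1.38 and 4.86 TPM. The aligned sequence was between 4.47 and 5.4 Gb per library, as derived from the ratio of FPKM to coverage.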

How the data were processed

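Liver RNA of 4 rats was sequenced as 4 libraries, 1 for each condition, and samples were grouped by their treatment labels. The authors trimmed the reads, mapped them to rn6 with HISAT2, sorted them with SAMtools, and ran StringTie guided by refGene models. The deposited tables give average coverage per base (a signal not normalized for library size), FPKM values, and TPM values, a signal proportional to FPKM, for annotated rows and again for rows assembled by StringTie, which the authors' run scaled to add up to 1000000. The deposited FPKM values were used for depth and as an alternative. Annotated rows of 200 bp or shorter were removed and TPM values were summed per symbol, which left 16992 genes, and each Cyp2b gene had 1 row. Fold changes are ratios of TPM values without a pseudocount, except where log2(TPM + 1) is stated. The tables hold no read counts, so that counting intervals were not calculated, and with 1 library per condition no p-values were calculated. The members and gene lists were chosen with earlier results of these data known. Genes named are the Cyp2b genes, those of the lists past the limits with either agent, the 3 most abundant and the extreme list genes, *Nr1i3* and *Nr1i2*, genes within 500 kb (given as counts, ranges, and examples chosen after their values were seen), and the 5 nearest to *Cyp2b1*. *Uros*, *Aldh1a7*, and the single pericentral markers were named after their values were seen. Promoters and gene order were taken from RefSeq tables of GRCr8, aligned with Biopython 1.88. Protein sequences were not used here. Scripts ran under Python 3.11.15 using pandas 2.3.3 and numpy 2.4.6. Simulated data with known changes were used to check that the calling code applies the limits, which does not bear on differences between single livers. Alternatives covered units, scaling, controls, limits, pseudocount, and assembled rows.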

Additional observations from a re-analysis of the deposited data

Results flagged for a closer look

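Each agent has 1 library per state, and none of the following differences between agents was tested. Changes in opposite directions, with at least 1 of them past the limits, were seen for 4 genes of the CAR lists. *Cyp3a9* was at 0.874-fold with sevoflurane and 3.65-fold with desflurane. *Nr1i3* was at 0.430-fold and 1.13-fold, and *Nr0b2* at 0.419-fold and 1.41-fold. *Hsp90aa1* was at 1.72-fold with sevoflurane and 0.493-fold with desflurane. Against the control of the other agent, the values were 1.42-fold and 2.25-fold for *Cyp3a9*, 0.610-fold and 0.795-fold for *Nr1i3*, 1.10-fold and 0.537-fold for *Nr0b2*, and 1.47-fold and 0.580-fold for *Hsp90aa1*, so that the opposite directions were seen with both choices of control for *Hsp90aa1* and *Nr0b2*, with the signs exchanged for *Nr0b2*.

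Assembled rows that overlap no annotated gene gave signal near the Cyp2b genes. Within 20 kb of *Cyp2b1*, such rows summed to 52.8 TPM after 6 hours of sevoflurane and 29.5 TPM after 6 hours of desflurane, and to 41.5 and 50.8 TPM in the sevoflurane and desflurane controls. These sums cannot be compared, because the rows cover different stretches. In the controls, the main row lies between 25.1 and 25.4 kb from the *Cyp2b1* start, a stretch that the long *Cyp2b1* row includes after 6 hours, when the main separate row starts at 26.8 kb. Behind *Cyp2b3*, a row on the opposite strand with 2.05 TPM was present after 6 hours of desflurane, and such rows summed to 0 in the other libraries.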

How the results depend on the processing

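No paired analysis was possible because the labels give no replicate numbers and each condition has 1 library, and for the same reason no replicate could be left out. A fold change was taken as stable when its direction, its side of the limits, and its size within 1.5 times were kept. *Cyp2b1*, *Cyp2b2*, and their sum were stable in all alternatives run (*Cyp2b1* from 72.3-fold to 102-fold with sevoflurane and from 53.4-fold to 67.9-fold with desflurane). *Cyp2b3* with desflurane reversed to 1.17-fold with assembled rows added, which counts reads again, and to 1.70-fold with assembled rows alone, an alternative chosen after the data were seen, under which the family sum with desflurane was 6.55-fold. *Cyp2b15* with sevoflurane reversed to 0.938-fold and 0.928-fold in these settings, which include the row of *Atad1*. Weighting by coverage times row length, introns included, gave family sums of 2.27-fold and 1.90-fold, the latter below the limit, since *Cyp2b3* has the longest row of the abundant members. In the lists, FPKM values gave 1 CAR target and 2 pathway genes downregulated by desflurane, and median-of-ratios scaling also gave 1 and 2. With controls exchanged between agents, sevoflurane downregulated 2 targets, upregulated 1 pathway gene, and downregulated 1, and desflurane downregulated 1 target and 0 pathway genes. With the mean of both controls, sevoflurane downregulated 1 pathway gene, and desflurane 1 target and 0 pathway genes. The Cyp2b shares of the net P450 gain, 97.7% with sevoflurane and 40.8% with desflurane, became 55.5% and 79.0% with exchanged controls, also chosen after the data were seen. A fold limit of 1.5 gave 14 targets and 2 pathway genes upregulated by sevoflurane and 8 targets and 2 pathway genes downregulated by desflurane. A fold limit of 3 gave 0 pathway genes downregulated by sevoflurane, 6 targets and 1 pathway gene upregulated by desflurane, and 0 pathway genes downregulated by it. Over all genes, upregulated numbers with sevoflurane and desflurane were 218 and 275. They were 124 and 152 for FPKM, where the limit of 2 was kept although FPKM and TPM differ in scale. At a TPM limit of 5, they were 147 and 198. They were 783 and 1020 at a fold limit of 1.5, and 65 and 90 at 3. Downregulated numbers were 322 and 146, compared with 788 and 419 at 1.5 and 130 and 44 at 3, and 196 with sevoflurane at a TPM limit of 5. After median-of-ratios scaling, the median log2 changes with desflurane were -0.02 for P450 partners and -0.01 for the CAR pathway, instead of 0.10 and 0.11. The causes of changes not explained here were not tested.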

Other observations

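Among the 26 Cyp2 genes outside the Cyp2b family, 0 passed the limits with sevoflurane, and desflurane upregulated 3 and downregulated 0, beside 1.28% of all genes called higher with sevoflurane and 1.62% with desflurane. These were *Cyp2c11*, the male-specific steroid hydroxylase of rat liver, *Cyp2c24*, and *Cyp2j4*, named after their values were seen. The TPM value of *Cyp2c11* was 1457 in the control and 1245 at 6 hours for sevoflurane, and 544 in the control and 1146 at 6 hours for desflurane, so the desflurane control stood below the other libraries. Against the sevoflurane control, *Cyp2c11* was at 0.787-fold after 6 hours of desflurane. *Cyp2c24* reached 4.82 TPM after 6 hours of desflurane and was at most 1.39 TPM in the other libraries, and *Cyp2j4* changed 2.03-fold with desflurane and 0.991-fold with sevoflurane. Against the sevoflurane control, *Cyp2j4* was at 1.74-fold after 6 hours of desflurane, below the limit.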
